A study of Mus musculus with 6 samples.

Results

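The genes described here are 7 genes known from sprouting vessels, Esm1, Apln, Aplnr, Pdgfb, Cxcr4, Cd34 and Nid2, which were taken by symbol from the 22026 gene symbols listed for each sample, and all 7 were found. Choroid endothelial cells (ECs), which line the vessels behind the retinal pigment epithelium (RPE), were sorted from 129/B6 mice of both ages, P5 (postnatal day 5) and P30 (postnatal day 30), each age with 3 independent isolations that pooled the eyes of 7 animals. Every animal, at P5 and at P30, received anti-VE-Cadherin antibody behind the eye, which binds the junctions of ECs, and VE-Cadherin+ cells of the digested RPE/choroid were collected by flow cytometry. The antibody was given in a smaller amount at P5, after cooling of the pups as anaesthesia, while the anaesthetic at P30 is not specified. Handling and age cannot be told apart, and no genetic change is named for either group. Males and females were used at P30, and the sexes at P5 are not given in the sources used here. The comparison asks how far the transcripts of a sprouting programme differed between immature choroid ECs and those of visually mature mice.

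A vessel sprout is led by a tip cell, which extends filopodia toward vascular endothelial growth factor and divides little, and is followed by stalk cells, which divide and form the lumen. When growth ends, the ECs settle into a resting, flow-exposed state called phalanx. Tip cells are known for a set of secreted and surface proteins. Among the 7 genes, Apln encodes the peptide apelin and Aplnr its G protein-coupled receptor, Cxcr4 is a receptor of the chemokine Cxcl12, Pdgfb is the platelet-derived growth factor chain by which ECs recruit pericytes, Esm1 is the secreted proteoglycan endocan, Nid2 is the basement membrane protein nidogen-2, and Cd34 is a sialomucin of the cell surface.

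The 7 genes lie on chromosomes 1 (Cxcr4, 130484776 to 130488870 on the minus strand, and Cd34, 196765015 to 196787486 on the plus strand), 2 (Aplnr, 84976517 to 84980079, plus), 13 (Esm1, 113999867 to 114008306, plus), 14 (Nid2, 20570479 to 20631009, plus), 15 (Pdgfb, 79826330 to 79845238, minus) and X (Apln, 45378323 to 45388030, minus) of mm9. Exons of Cd34 and Nid2 overlap an antisense gene in that annotation, over 5.65% and 7.90% of their exon bases, and strand was not stated to be used. The antisense gene over Nid2 (2700060E02Rik) had a mean FPKM of 93.5 at P5 and 123 at P30, against 1166 and 539 for Nid2.

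RefSeq promoter windows, from 250 bases before to 50 after the annotated start in GRCm38.p6, were available for 4 of the 7 genes. They are missing for Aplnr, Pdgfb and Nid2. The window of Esm1, which rose, is shown beside that of Cxcr4, whose P30 mean was the smallest share of its P5 mean among the 4. Capitals mark exact matches on either strand to TATAAA (the TATA box), GGGCGG (the GC box) and GGAA (the core of ETS factor sites), and in Cxcr4 both TATA matches overlap each other.
Esm1 (chr13:113209409-113209708, plus strand): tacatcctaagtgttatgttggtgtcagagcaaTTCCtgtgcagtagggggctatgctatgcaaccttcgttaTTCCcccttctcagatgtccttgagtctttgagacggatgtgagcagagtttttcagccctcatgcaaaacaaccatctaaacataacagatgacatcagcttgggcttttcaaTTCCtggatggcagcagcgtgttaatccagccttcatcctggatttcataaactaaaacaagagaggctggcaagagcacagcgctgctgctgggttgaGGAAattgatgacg
Cxcr4 (chr1:128592250-128592549, minus strand): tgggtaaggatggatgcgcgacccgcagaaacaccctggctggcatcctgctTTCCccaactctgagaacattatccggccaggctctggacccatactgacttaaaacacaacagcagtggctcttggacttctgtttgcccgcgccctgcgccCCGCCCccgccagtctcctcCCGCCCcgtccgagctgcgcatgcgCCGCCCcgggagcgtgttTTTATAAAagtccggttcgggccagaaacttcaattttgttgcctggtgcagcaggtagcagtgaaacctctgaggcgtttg
Esm1 held 4 matches to GGAA and none to the other 2 motifs, whereas Cxcr4 held 1 match to GGAA, 3 to GGGCGG and 2 to TATAAA. Of 32851 windows of the same length, 96.0% held GGAA, 35.7% GGGCGG and 13.6% TATAAA. Apln held 4 matches to GGAA, 1 to GGGCGG and 0 to TATAAA, and Cd34 held 5, 0 and 0. The hypoxia response core ACGTG, present in 19.6% of the windows, was found in none of the 4. These matches describe the letters of the windows alone.

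The deposited values are FPKM (fragments counted for a transcript, scaled by its length and by a library factor, here with upper quartile normalization). Since no read counts accompany them, the sequencing depth is unknown. Differences were tested with limma on log2(FPKM + 1), on which the change of low genes is understated, over the 12481 genes whose mean FPKM reached 5 at either age. The limits for calling a gene changed were a 2-fold difference in mean FPKM + 1 and a p under 0.01 after Benjamini-Hochberg adjustment, and 11.7% of the genes tested passed them (5.89% higher at P30 and 5.82% higher at P5). Triplets of values below are given in the order of replicates 1, 2 and 3, and the log2 difference is always P30 minus P5. The 10 endothelial markers were high in every isolation, and their summed FPKM was 21006 to 21991 at P5 and 29925 to 36208 at P30. Only 1 of the 10 passed the limits, Plvap, with a mean of 4692 at P5 and 11590 at P30. Cdh5 (2971 and 1885) and Pecam1 (1611 and 1421) had lower means at P30, and the rest higher means. Marker lists of other cell types showed that some isolations held more transcripts of those cells. Summed RPE markers reached 499 to 3825 at P30, highest in replicate 1, against 66.5 to 152 at P5, and summed pericyte markers 1841 to 6228 at P30, highest in replicate 2, against 468 to 1712 at P5. Haematopoietic markers summed to 969 to 1237 at P5 and 389 to 1014 at P30, with Cd3e and S100a8 listed at 0 in all 6 samples. Photoreceptor markers summed to 2.70 to 9.60 at P5 and 41.8 to 366 at P30, smooth muscle markers to 85.0 to 173 and 302 to 1064, fibroblast markers to 725 to 1193 and 1776 to 4488, and melanocyte markers to 97.0 to 457 and 120 to 1251. Of the tested RPE markers, 5 of 7 passed the limits higher at P30, of the photoreceptor markers 3 of 6 and of the smooth muscle markers 1 of 4. So did 1 of 7 pericyte, 1 of 6 fibroblast and 0 of 5 melanocyte markers, against 5.89% of all genes tested. Rgs5 was the largest part of the pericyte sums (mean FPKM 580 at P5 and 2675 at P30), whereas Abcc9 had 174 and 173. In such bulk samples, fewer cells of a type and less RNA per cell cannot be told apart.

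**Figure D1:**
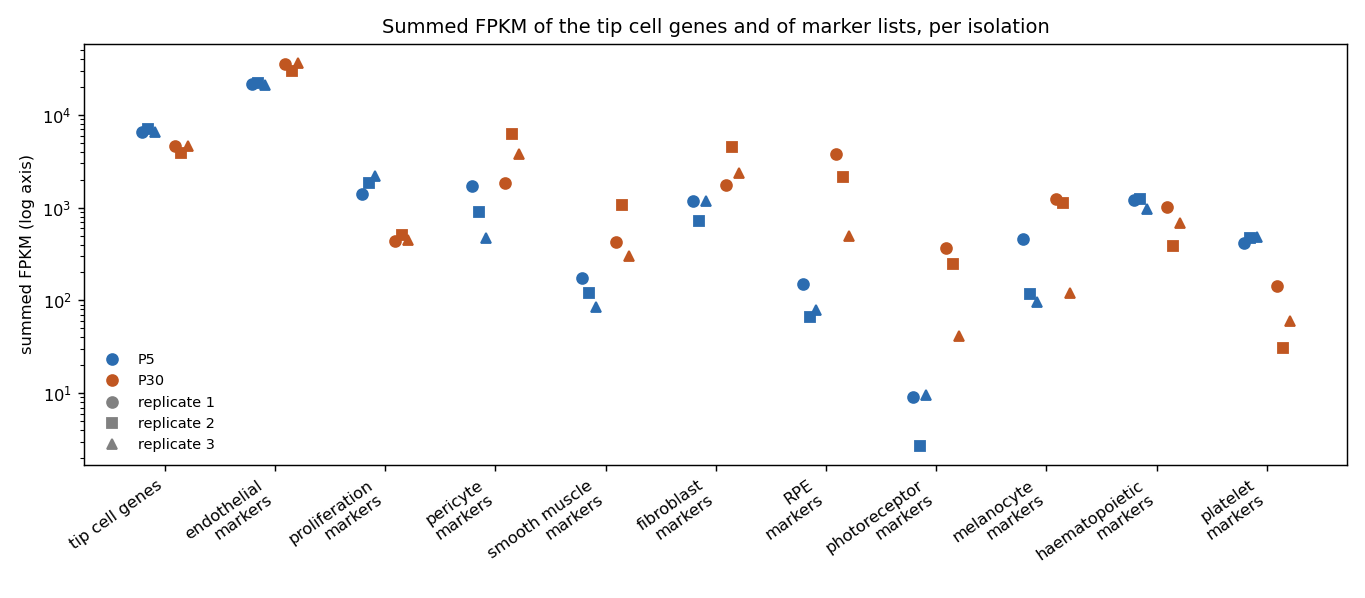
Summed FPKM on a log axis for the 7 tip cell genes and for 10 marker lists, with 1 point per isolation, blue for P5 and orange for P30. The tip cell genes summed to 6509 to 7031 at P5 and 3935 to 4624 at P30. Cd34, which did not pass the limits, was the largest part of these sums (mean FPKM 3203 at P5 and 2255 at P30). The RPE, photoreceptor, pericyte, smooth muscle, fibroblast and endothelial sums lay higher in every P30 isolation than in every P5 isolation.

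All 7 genes passed the minimum FPKM, and 3 of them (42.9%, against 11.7% of all genes tested) changed between ages, Aplnr and Nid2 falling and Esm1 rising. Their median log2 difference (P30 minus P5) was -0.51, against -0.10 over all genes tested. The P5 and P30 isolations did not overlap for 6 of the 7 genes, 5 with P30 below and 1 with P30 above, but this was also so for 55.1% of the genes tested (33.0% below and 22.0% above). The levels, which FPKM gives per length, were ordered at P5 as Cd34, Aplnr, Nid2, Pdgfb, Esm1, Apln and Cxcr4, with overlapping ranges between Aplnr and Nid2 and between Apln and Cxcr4. At P30 the order was Cd34, Esm1, Nid2, Pdgfb, Apln, Aplnr and Cxcr4, with overlapping ranges between Nid2 and Pdgfb and between Aplnr and Cxcr4. Aplnr thus went from rank 2 to rank 6 of the 7 and Esm1 from rank 5 to rank 2.

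**Figure D2:**
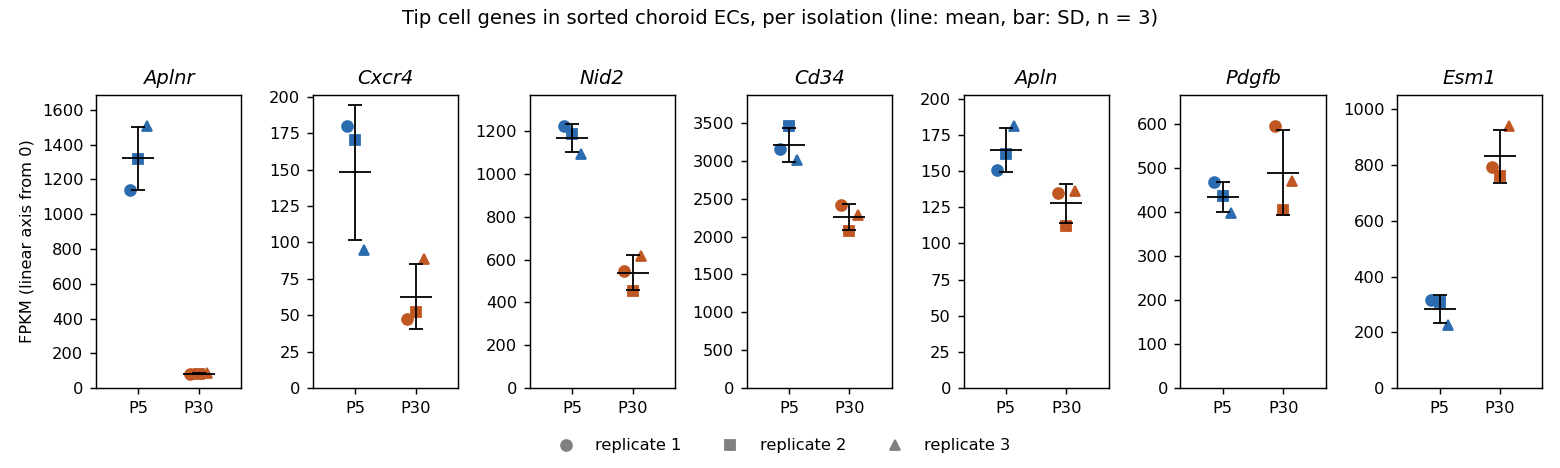
FPKM of each tip cell gene on a linear axis from 0, ordered by fold change, with 1 point per isolation, the mean as a line and the SD as a bar (n = 3 per age). Aplnr sits at 1140 to 1505 in the P5 isolations and at 82.3 to 85.0 at P30, Esm1 moves the opposite way, and the Pdgfb points of both ages overlap.

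The apelin receptor showed the largest difference of the group. Aplnr had an FPKM of 1140, 1318 and 1505 at P5 and of 82.3, 83.9 and 85.0 at P30. Every P5 isolation was far above every P30 isolation, and the P30 values hardly varied (coefficient of variation 1.62%, against 13.8% at P5). The mean fell 15.8-fold, from 1321 ± 182 (SD, n = 3) to 83.8 ± 1.36, and the log2 difference was -3.95 (SE 0.12, limma adjusted p = 2.64e-05). By size of the log2 difference, it was the fall of rank 97 among the 12481 genes tested. Aplnr lay at percentile 99.6 of all listed genes by mean FPKM at P5 and at percentile 80.5 at P30.

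The transcript of the ligand showed a smaller difference. Apln had 151, 162 and 181 at P5 and 135, 112 and 136 at P30, and its log2 difference of -0.36 (SE 0.12, 95% interval -0.65 to -0.08) did not pass the limits (limma adjusted p = 0.0511). It was -0.53 with FPKM rescaled to the same sum (limma adjusted p = 0.0191) and -0.76 with FPKM rescaled to the endothelial markers (limma adjusted p = 0.00225), the latter past the p limit but under the fold limit. The P30 values lay below the P5 values by a narrow margin. The ratio of Apln to Aplnr FPKM within an isolation was 0.132, 0.123 and 0.120 at P5 and 1.34 to 1.64 at P30, so the receptor transcript exceeded the ligand in each P5 isolation and the ligand exceeded the receptor in each P30 isolation. On the log2 scale the ratio was 3.59 higher at P30 (exact permutation test, two-sided, p = 0.1, the smallest that 3 against 3 allow, and 0.125 after adjustment over the 5 ratios compared). Apela, the gene of the other apelin receptor ligand, was not found under its symbol or older names, and is not analysed here.

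Proliferation markers differed between the same isolations. Of 15 such genes, 14 were higher at P5 (93.3%, against 5.82% of all genes tested), with a median log2 difference of -4.94, and their summed FPKM was 1394, 1836 and 2217 at P5 and 433 to 506 at P30. Most of the P30 sum came from Pcna, the clamp of DNA polymerases, which had 264 to 334 at P5 and 362 to 431 at P30 and did not pass the limits. Without it, a choice made after its values were seen, the sums were 1130, 1523 and 1883 at P5 and 65.7, 74.6 and 81.8 at P30. At P5, replicate 1 was lowest and replicate 3 highest in both sums and in Aplnr. The 3 genes whose profile over the 6 samples lay closest to Aplnr were Dtl, Pole and Fanca, genes of DNA replication and repair, at root mean square distances of 0.12, 0.12 and 0.15 on the centred log2(FPKM + 1) scale. Their mean FPKM of 23.6 to 31.6 at P5 and 0.660 to 1.01 at P30 was far lower than that of Aplnr. At such low P30 values, log2(FPKM + 1) understates their fall. Their closeness to Aplnr therefore depends in part on the 1 added. The part of proliferation in the fall of Aplnr was not tested.

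Cxcr4 had the lowest mean of the 7 genes at both ages and the widest spread. Its FPKM was 180, 170 and 95.2 at P5 and 47.7, 52.0 and 88.6 at P30. P5 replicate 3 and P30 replicate 3 nearly met, whereas the other isolations were well apart. The log2 difference was -1.23 (SE 0.31, 95% interval -1.95 to -0.51), and the adjusted p of 0.0183 from limma missed the limit. Without P30 replicate 3 the limits were passed, at -1.50 (limma adjusted p = 0.00848), as they were with FPKM rescaled to the endothelial markers, at -1.63 (limma adjusted p = 0.00351). Leukocytes also express Cxcr4. Of the 12 haematopoietic markers, 9 were tested, and 3 of them (Ptprc, Laptm5 and Fcer1g) were higher at P5 (33.3%, against 5.82% of all genes tested). Among the 6 that did not pass the limits, Lyz2 and Cd14 had higher means at P30, and Csf1r, Itgam, Cd68 and Tyrobp lower means. The summed markers of P5 replicate 3 were the lowest at that age (969, against 1212 and 1237), while P30 replicate 3 lay between the others (682, against 1014 and 389), and their part in the Cxcr4 values was not tested.

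Both partners of Cxcr4 rose, as did 5.89% of all genes tested. Cxcl12, its chemokine ligand, had 292, 329 and 217 at P5 and 873, 1465 and 1049 at P30, and rose with a log2 difference of 2.0 (SE 0.22, limma adjusted p = 0.000747). Ackr3, a receptor that takes up and clears the same chemokine and is listed under its older symbol Cxcr7, had 82.4, 65.1 and 51.2 at P5 and 209, 286 and 206 at P30 (log2 difference 1.81, SE 0.20, limma adjusted p = 0.000776). No P30 value of either gene overlapped with P5, and 22.0% of all genes tested also had every P30 isolation above P5. Per isolation, Cxcr4 was 1.86 to 2.61 times the FPKM of Ackr3 at P5 and 0.182 to 0.430 times at P30, and Cxcl12 was 1.63 to 2.28 times that of Cxcr4 at P5 and 11.8 to 28.2 times at P30. Both log2 ratios separated the ages, by -3.04 and 3.23, with the smallest exact p the design allows (exact permutation test, two-sided, p = 0.1, adjusted over the 5 ratios 0.125). Cxcl12 was highest in P30 replicate 2, which also had the highest summed pericyte (6228) and fibroblast markers (4488), and stromal cells are a known source of this chemokine. Their part in its rise was not tested.

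**Figure D3:**
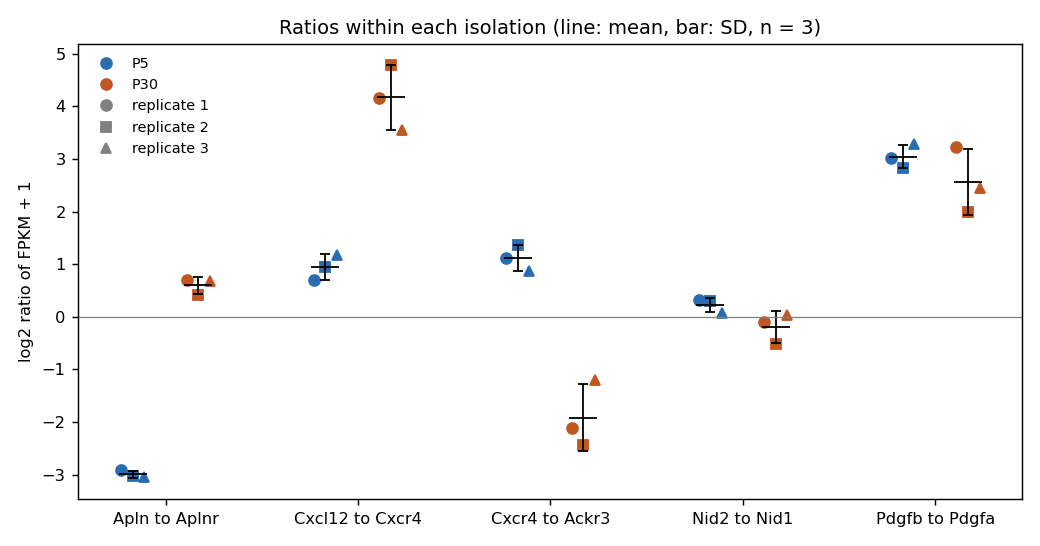
Log2 ratio of FPKM + 1 within each isolation for 5 pairs of genes, with 1 point per isolation, the mean as a line and the SD as a bar (n = 3 per age). The Apln to Aplnr ratio crosses 0 from P5 to P30, the Cxcr4 to Ackr3 ratio crosses it in the opposite direction, and the Pdgfb to Pdgfa ratio overlaps between ages.

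Pdgfb was the gene of the group with the smallest difference. It had 468, 436 and 399 at P5 and 595, 405 and 471 at P30, and the isolations of both ages overlapped. The log2 difference was 0.16 (SE 0.15, 95% interval -0.19 to 0.51, limma adjusted p = 0.429), and it was -0.25 with FPKM rescaled to the endothelial markers and -0.01 with FPKM rescaled to the same sum, so its sign was not fixed. Platelets carry this growth factor too, and Pf4, a chemokine of platelets, had 407 to 467 at P5 and 15.2 to 138 at P30. The other 3 platelet genes (Ppbp, Itga2b and Gp9) had at most 11.0 in any sample. The part of platelets in the Pdgfb values was not tested.

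Of the 5 other genes of the platelet-derived growth factor family, 1 fell and 0 rose, against 5.82% and 5.89% of all genes tested. The ligand Pdgfc fell from 35.7 ± 9.41 (SD, n = 3) to 14.0 ± 1.90 (log2 difference -1.27, SE 0.23, limma adjusted p = 0.00532), and this call was lost with the replicate block and without P5 replicate 1, P5 replicate 2, P5 replicate 3, P30 replicate 1 or P30 replicate 2. The ligand Pdgfd had 47.2 ± 5.45 at P5 and 121 ± 54.5 at P30 (log2 difference 1.23, limma adjusted p = 0.0211) and Pdgfa had 52.6 ± 10.8 and 82.9 ± 19.3 (0.64, limma adjusted p = 0.0550), neither past the limits. Pdgfrb, by which pericytes sense Pdgfb, had 226, 111 and 48.6 at P5 and 230, 993 and 491 at P30, a spread that left the log2 difference of 2.16 outside the limits (SE 0.65, limma adjusted p = 0.0348). Pdgfra, a receptor of fibroblasts, had 6.38 to 13.5 at P5 and 15.6 to 54.4 at P30 (log2 difference 1.53, limma adjusted p = 0.0345). Both receptors are also among the markers of pericytes and fibroblasts, and both were highest in P30 replicate 2.

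Esm1 was the only one of the 7 genes that rose. Its FPKM was 317, 308 and 228 at P5 and 794, 762 and 939 at P30. Each P30 isolation had more than each P5 isolation, with a coefficient of variation of 17.3% at P5 and 11.3% at P30. The mean rose 2.92-fold, from 284 ± 49.2 (SD, n = 3) to 831 ± 94.2 (log2 difference 1.55, SE 0.15, limma adjusted p = 0.000478). By size it was the rise of rank 874 among the 12481 genes tested. The nearest profiles were those of Chpf, which lengthens chondroitin chains, Zbtb4, a zinc finger factor, and Ehd4, a protein of endosomes, at distances of 0.05, 0.06 and 0.07.

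Nid2, which ties laminin to type IV collagen, had 1221, 1185 and 1093 at P5 and 545, 453 and 619 at P30. The lowest P5 value was well above the highest P30 value. The mean fell 2.16-fold, from 1166 ± 66.1 (SD, n = 3) to 539 ± 82.9 (log2 difference -1.12, SE 0.13, limma adjusted p = 0.000887). Its paralog Nid1 had 994 ± 37.8 and 612 ± 36.6, below the fold limit (log2 difference -0.70, SE 0.09, limma adjusted p = 0.00146). The ratio of Nid2 to Nid1 was 1.24, 1.23 and 1.06 at P5 and 0.938, 0.695 and 1.03 at P30, lower at P30 by 0.42 on the log2 scale with P5 replicate 3 and P30 replicate 3 close together (exact permutation test, two-sided, p = 0.1, adjusted over the 5 ratios 0.125). Without P30 replicate 2 the difference was -0.26.

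Of the 5 basement membrane partners of Nid2, 1 fell, 1 rose and 3 did not pass the limits, against 5.82% lower and 5.89% higher at P30 among all genes tested. The laminin chain Lamc1, to which nidogens bind, fell from 1280 ± 76.1 to 629 ± 120 (log2 difference -1.04, SE 0.14, limma adjusted p = 0.00178), though not past the limits when P5 replicate 2, P5 replicate 3, P30 replicate 1 or P30 replicate 3 was left out. The chain Lamb2 rose from 298 ± 54.0 to 717 ± 7.35 (log2 difference 1.28, SE 0.14, limma adjusted p = 0.000724), a call that was lost with FPKM rescaled to the endothelial markers. Hspg2, which encodes perlecan, had 1644 ± 76.6 and 1041 ± 45.0 (log2 difference -0.66, SE 0.09, limma adjusted p = 0.00193) and missed the fold limit alone. Lama5 had 289 ± 36.3 and 361 ± 23.9 (0.33, SE 0.12, limma adjusted p = 0.0660) and missed both limits. Type IV collagen chains were not in this partner list but among other tip cell genes counted below, and were picked after their values were seen. Col4a1 fell from 4241 ± 99.5 to 1780 ± 430 (log2 difference -1.28, SE 0.17, limma adjusted p = 0.00161). Col4a2 had 2644 ± 126 and 1399 ± 273 (-0.93, SE 0.15, limma adjusted p = 0.00311), under the fold limit. The profiles nearest to Nid2 were those of Hdac8, Rcc2 and Ola1, at distances of 0.08, 0.08 and 0.09.

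Cd34 had the highest level of the group at both ages. It had 3150, 3452 and 3008 at P5 and 2412, 2067 and 2286 at P30. The isolations did not overlap, but the difference was small. The mean was 3203 ± 227 (SD, n = 3) at P5 and 2255 ± 174 at P30, with a log2 difference of -0.51 (SE 0.11, 95% interval -0.77 to -0.25, limma adjusted p = 0.0113), and neither limit was passed. With quantile normalization the log2 difference was -1.22 and passed both limits (limma adjusted p = 0.000458), and with FPKM rescaled to the endothelial markers it was -0.91 and passed the p limit alone (limma adjusted p = 0.000444).

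The other sialomucins of ECs did not pass the limits either. Podxl, which encodes podocalyxin, had 2288 ± 230 at P5 and 3026 ± 279 at P30 (SD, n = 3, log2 difference 0.40, limma adjusted p = 0.0374), and Emcn, which encodes endomucin, had 3002 ± 66.3 and 5523 ± 357 (0.88, limma adjusted p = 0.00106, under the fold limit). Podxl2 had 31.3 ± 5.20 and 18.5 ± 7.66 (log2 difference -0.78, limma adjusted p = 0.0662). The genes nearest in profile to Cd34 were Sh3bgrl3, Taf15 and Eif5a2 (distances of 0.03, 0.03 and 0.04), but 3143 tested genes lay within 0.25 of it. Within that distance there were 3225 genes for Apln (nearest Eif1b, Srsf9 and Fam102a), 2239 for Pdgfb (nearest Scamp4, Abcc10 and Anks6), 361 for Nid2, 158 for Esm1, 14 for Aplnr and 4 for Cxcr4 (nearest Cdh29, Rps2 and Gm13253). The distance is not scaled per gene, so these counts also depend on the size of the difference and the spread between isolations.

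A further 26 genes that are known from tip cells or sprouting were set beside the 7. Of these, 5 rose (19.2%) and 7 fell (26.9%), against 5.89% and 5.82% of all genes tested, and their median log2 difference was -0.55. The largest rises were those of Angpt2, a ligand of the Tie2 receptor that loosens vessels, Plaur, the receptor of urokinase, Dusp5, a phosphatase of the ERK kinases, and Sox17, a transcription factor of arterial ECs. Angpt2 had 17.5, 17.4 and 6.06 at P5 and 87.7, 128 and 126 at P30 (log2 difference 3.08, SE 0.38, limma adjusted p = 0.00120). Plaur had 42.5, 43.3 and 50.4 at P5 and 429, 305 and 296 at P30 (2.87, SE 0.16, limma adjusted p = 9.24e-05). The log2 difference was 2.29 for Dusp5 and 1.45 for Sox17. No P30 isolation overlapped with P5 in any of these 4 genes, but they were picked as the largest called rises. Of all genes tested, 22.0% also had every P30 isolation above P5.

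The largest falls were those of Igf2, an insulin-like growth factor, Kcne3, a potassium channel subunit, Fscn1, which bundles actin in filopodia, and Lama4, a laminin chain of vessels. Igf2 had 594, 1077 and 1208 at P5 and 128, 138 and 79.7 at P30 (log2 difference -3.02, SE 0.31, limma adjusted p = 0.000524). Fscn1 had 713, 805 and 824 at P5 and 236, 254 and 303 at P30 (-1.56, SE 0.12, limma adjusted p = 0.000235). The log2 difference was -2.59 for Kcne3 and -1.45 for Lama4. The number of falls rose to 12 with quantile normalization and 11 with FPKM rescaled to the same sum. It rose to 13 with FPKM rescaled to the endothelial markers. With 1 isolation left out it ranged from 5 to 9, being 5 without P5 replicate 2 or P5 replicate 3. The number of rises stayed between 4 and 6 in all alternatives. Neither the 7 genes nor the 26 others therefore moved one way, Esm1, Angpt2 and Plaur being higher at P30 and Aplnr, Igf2 and Fscn1 higher at P5.

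**Figure D4:**
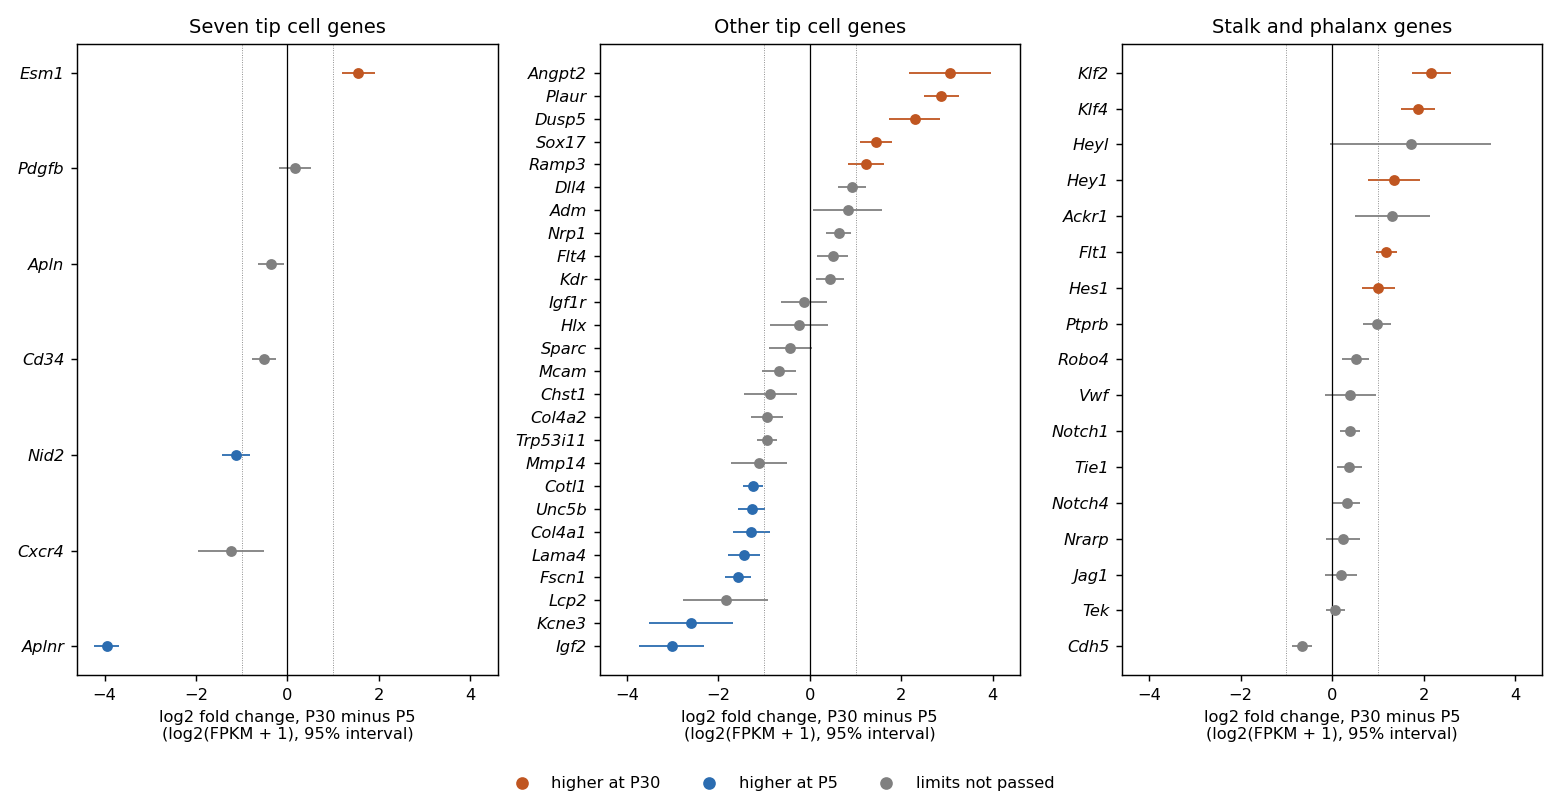
Log2 difference from P5 to P30 on the log2(FPKM + 1) scale with its 95% interval from limma, for the 7 tip cell genes, 26 other tip cell genes and 17 stalk and phalanx genes. Orange marks genes past both limits and higher at P30, blue those higher at P5, grey the rest, and the dotted lines a 2-fold difference. The 7 genes run from -3.95 (Aplnr) to 1.55 (Esm1), and all called stalk and phalanx genes lie on the P30 side.

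Of 17 genes known from stalk or phalanx cells, 5 rose (29.4%) and 0 fell, against 5.89% and 5.82% of all genes tested, with a median log2 difference of 0.51. The leading rises were those of Klf2 and Klf4, factors that flow induces in ECs, and of Hey1, a target of Notch. Klf2 had 795, 593 and 624 at P5 and 3257, 2335 and 3500 at P30 (log2 difference 2.16, SE 0.18, limma adjusted p = 0.000301), and the P30 isolations were all far above those of P5. Klf4 rose by 1.88 and Hey1 by 1.34 on the log2 scale. The number of rises in the list was 3 with quantile normalization, 2 with FPKM rescaled to the endothelial markers, and 3 without P5 replicate 2 or P5 replicate 3. Cdh5, Tek and Tie1 of this list are also endothelial markers, so the rescaling to those markers was not independent of the list. The difference between this list and the tip cell genes was not tested.

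The genes were also set against the endothelial markers of the same isolation. The log2(FPKM + 1) of Aplnr minus the mean of the 10 markers was -0.46 ± 0.23 (SD, n = 3) at P5 and -4.82 ± 0.10 at P30, and that of Esm1 was -2.67 ± 0.23 and -1.53 ± 0.17. The same level was 0.83 ± 0.07 and -0.08 ± 0.03 for Cd34, and -0.63 ± 0.05 and -2.16 ± 0.19 for Nid2. Some of these markers themselves differed between ages, from -0.66 for Cdh5 to 1.28 for Plvap on the log2 scale, so this reference was not constant. Kdr is also in the list of other tip cell genes, and Emcn is also among the sialomucins above.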

How the data were processed

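RNA of sorted choroid ECs was sequenced on a HiSeq2000, with 4 samples per lane and the lanes not given. The authors used TopHat against the mm9 genome, then CuffLinks with GC and upper quartile normalization for FPKM, and deposited 1 FPKM value per gene symbol and isolation. Versions of these tools and the annotation are not given in the sources used here (CASAVA 1.8.2 is named in the submitters' processing notes). Read counts were not used here. No bin of 0.05 in the log2 ratio of low FPKM values (at most 2 in both samples) held more than 4.57% of the genes in any pair, so whole reads were not recovered and depth is unknown, and no counting interval is given.

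Samples were grouped by age from their titles. log2(FPKM + 1) was fitted with limma 3.58.1 in R 4.3.3 (lmFit, eBayes with a trend, no block) after a test of the fit on simulated data. Labels give isolations but no further detail, so p-values measure the spread between 3 pools of animals per age. Ratios of 5 gene pairs were compared by exact permutation (scipy 1.17.1). Gene positions on mm9 come from GENCODE, in which 21274 of 22026 symbols were found, and promoters from RefSeq. The 7 genes and all lists were chosen with earlier results of these data known. Named genes were the 7, their listed partners, the 4 (tip cell list) or 3 (stalk and phalanx list) largest called changes in each direction, and the 3 nearest profiles per gene by root mean square distance over the 6 samples. A listed partner is not reported here. Alternatives were pseudocounts of 0.1 and 5, minimum mean FPKM of 0, 1 and 10, no trend, 3 other scalings, a replicate block, the fold limit on the limma coefficient, and each isolation left out.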

Additional observations from a re-analysis of the deposited data

How the results depend on the processing

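Aplnr, Nid2 and Esm1 kept their direction and passed both limits under all 17 alternatives to the fit, with log2 differences of -4.36 to -3.86 for Aplnr, -1.53 to -1.0 for Nid2 and 1.15 to 1.64 for Esm1 (limma adjusted p of at most 0.000405, 0.00728 and 0.00338). Scaling shifted the median log2 difference of all genes tested from -0.10 to -0.26 with FPKM rescaled to the same sum and to -0.49 with FPKM rescaled to the endothelial markers. With quantile normalization, Cd34 passed the limits at -1.22, the other tip cell list had 12 genes higher at P5, the stalk and phalanx list 3 higher at P30 and 1 at P5, and the nidogen partners 2 higher at P5. With FPKM rescaled to the same sum, Pdgfb was at -0.01 and 11 other tip cell genes were higher at P5. With FPKM rescaled to the endothelial markers, Pdgfb was at -0.25 and Cxcr4 passed at -1.63, 13 other tip cell genes were higher at P5, the stalk and phalanx list had 2 upward and 1 downward calls and the nidogen partners 0 and 3, and of all genes tested 483 passed the limits upward at P30 and 1826 downward, in place of 735 and 726. The causes were not tested beyond the shift itself.

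The replicate block changed no call of the 7 genes and gave 585 upward and 524 downward calls over all genes, and the family of platelet-derived growth factors had 0 genes higher at P5 under it in place of 1. Same-numbered isolations had correlations of -0.0618, -0.0905 and -0.0305 in their deviations from the age means, and 0 of the 6 isolations correlated best with its own number. No pairing was thus seen in these values, and whether same-numbered isolations shared a preparation day or lane is not given. With 1 isolation left out in turn, Cxcr4 ranged from -1.52 to -1.06, the stalk and phalanx genes higher at P30 from 3 to 5, the platelet-derived growth factor family from 0 to 1 in each direction, the nidogen partners higher at P5 from 0 to 1, and all genes tested from 396 to 849 calls upward at P30 and from 291 to 754 downward. The upward calls were 404 and 396 without P5 replicates 2 and 3, and the downward calls 427, 291 and 297 without P5 replicates 1, 2 and 3. The 5 ratios kept their sign in all 8 alternatives tried on them, though Nid2 to Nid1 was -0.26 without P30 replicate 2 and Pdgfb to Pdgfa -0.82 without P30 replicate 1 and -0.20 without P30 replicate 2, and 3 isolations per age cannot give an exact p under 0.1.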

Other observations

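Among the other tip cell genes, some not described above were picked after their values were seen. The netrin receptor Unc5b had 331, 380 and 300 at P5 and 155, 136 and 125 at P30 (log2 difference -1.27, SE 0.13, limma adjusted p = 0.000496), and the actin-binding Cotl1 had 631, 717 and 698 at P5 and 281, 282 and 305 at P30 (-1.23, SE 0.09, limma adjusted p = 0.000218). Ramp3, which pairs with the adrenomedullin receptor, rose by 1.23 on the log2 scale. The Notch ligand Dll4 had 291, 261 and 301 at P5 and 644, 490 and 498 at P30 (0.92, SE 0.13, limma adjusted p = 0.00202), under the fold limit. The growth factor receptors Kdr, Flt4 and Nrp1 had log2 differences of 0.44, 0.50 and 0.63, all under the fold limit. Kdr and Flt4 also missed the p limit (limma adjusted p = 0.0338 and 0.0296), which Nrp1 passed (limma adjusted p = 0.00565).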
